A study of Mus musculus musculus x M. m. domesticus and Mus musculus musculus x Mus musculus castaneus and Mus musculus domesticus with 42 samples.

Results

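Testes of the F1 hybrid with an M. m. musculus mother and an M. m. castaneus father were compared with testes of both parental subspecies. The arrays were chosen by their labels: 2 arrays of this hybrid, 2 of musculus and 2 of castaneus, 6 of the 42 arrays of the series. The series covers brain, liver and testis of 14 males from 7 genotypes, with 1 one-colour Affymetrix array per tissue and male. All animals descend from wild-derived inbred lines of musculus, castaneus or domesticus, and no transgene, drug or other treatment is named for any of them. Musculus and castaneus males were 47 days old and the males of this hybrid, written musculus x castaneus F1 with the mother first, were 53 days old. Further hybrids of like age serve as comparison here, the reciprocal castaneus x musculus F1 at 54 days and the musculus x domesticus F1 at 53 days, with 2 males each. Domesticus males, 45 days old, serve for a grouping of genes by tissue and as parents of other hybrids. The domesticus x musculus F1, 50 days old, enters only a count of its own probe sets outside both parents. The hybrid was older than both of its parents, so age and genotype cannot be told apart in any difference between them. Each genotype stands for 1 cross of inbred lines, and the labels describe the replicates as separate males. The design allows the F1 testis to be set against its mother's subspecies, its father's subspecies and the mean of both.

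Spermatogenesis runs from spermatogonia, which divide by mitosis, through spermatocytes, which pass through meiosis, to haploid spermatids, which build the acrosome, condense their chromatin and grow a tail. Sertoli cells line the seminiferous tubules and nourish the germ cells, Leydig cells between the tubules make testosterone, and myoid cells, vessels and macrophages surround the tubules. A whole testis gives 1 RNA sample of all these cells. The number of cells of a type and the RNA per cell therefore cannot be told apart in any value below, higher or lower. All values are array signals, and log2 differences are on the scale of log2(signal + 31). Arrays were scaled to a shared target, so each signal is relative to the rest of its array. Higher values in some lists and lower values in others are therefore not independent. The words rose and fell refer to such relative values. Precision is limited by having 2 arrays per genotype.

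The testis label was checked against marker genes. Of 12 genes of spermatid chromatin condensation, 12 had a lowest testis signal above their highest signal in brain and liver, as had 24 of 26 acrosome genes. Only 14 of 29 Sertoli cell genes and 6 of 16 Leydig cell genes did so, so many genes of these lists are not particular to testis. Of 12 epididymis genes with a probe set, 3 passed the filter on dim values and none of these differed between the hybrid and its parents. The 2 hybrid arrays correlated with each other at a Pearson's r of 0.974 across probe sets, the lowest of the replicate pairs of all 7 genotypes, which reached 0.974 to 0.978. Against arrays of other genotypes they reached 0.875 to 0.951, while arrays of the other 6 genotypes correlated with each other at 0.926 to 0.981. The hybrid arrays thus stood apart from the other 12 together, at 71 and 80.5 on the first principal component against -47.2 to 21.3, and every result below rests on these 2 arrays. Median signals of the 6 arrays lay between 118 and 158, the highest in replicate 1 of the hybrid.

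In the hybrid testis 4149 of 27022 tested probe sets (15.4%) lay outside both parents, that is, above both or below both by the larger of the p-values against musculus and castaneus (limma, Benjamini-Hochberg adjusted p under 0.05). Of these, 2258 (8.36% of those tested) lay above both parents and 1891 (7%) below both. They cover 1717 distinct genes above and 1615 below, with 63 genes in both sets through different probe sets. The distance to the nearer parent had a median of 0.78 among those above and -0.87 among those below, and it exceeded 1 on the log2 scale, a doubling or halving of signal plus offset, for 374 above and 672 below. In all 4149, both hybrid arrays lay beyond all 4 parental arrays. By that rule alone, with no test, 29.4% of probe sets lay above and 15.6% below. Parents that did not differ gave most of them: 3764 came from the 23380 probe sets with no call between castaneus and musculus (16.1%) and 385 from the 3642 with one (10.6%).

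The split between higher and lower depends on the scaling of the arrays, and it also shifted when single arrays were left out. As deposited, 54.4% of the probe sets outside both parents lay above. Under quantile normalization 4149 were again called and 45.2% lay above, and under scaling of each array to its median 3274 were called and 24% lay above. The median of all probe sets against the mean of both parents, the midparent, moved with it, from 0.14 as deposited to 0.02 under quantile normalization and -0.06 under median scaling. Each list below is therefore also given relative to the median of all genes. Without replicate 2 of the hybrid 1677 probe sets were called, and without replicate 2 of castaneus 2479.

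Against each parent alone the counts were larger. The hybrid differed from musculus, its mother's subspecies, in 9782 probe sets (36.2%), 6025 higher and 3757 lower, and from castaneus, its father's, in 7406 (27.4%), 4265 higher and 3141 lower. Against the midparent 9552 (35.3%) differed, 5923 higher and 3629 lower. Higher calls made up 61.6% against musculus, 57.6% against castaneus and 62.0% against the midparent. Under quantile normalization these shares were 51.1%, 49.1% and 51.1%, and under median scaling 39.2%, 35.4% and 37.9%. Without replicate 2 of the hybrid 4175 probe sets differed from castaneus and 5431 from the midparent, and without replicate 2 of castaneus 4485 differed from castaneus. These comparisons share the hybrid arrays, and those with a midparent share the parental ones.

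**Figure D1:**
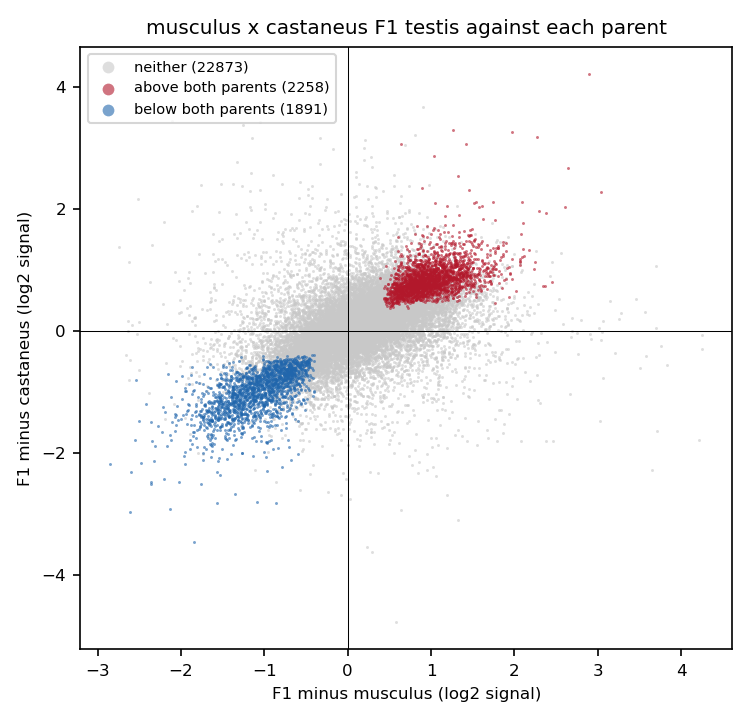
Log2 difference of the musculus x castaneus F1 testis from musculus (horizontal axis) and from castaneus (vertical axis), 1 point for each of 27022 tested probe sets. The 2258 probe sets above both parents lie in the upper right and the 1891 below both in the lower left; grey points were called in neither direction.

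Of the 1473 genes below both parents, 1072 were testis-enriched, that is, brighter in testis than in brain and liver. Of 14059 genes, 1 probe set each, 1312 (9.33%) lay above both parents and 1473 (10.5%) below. Genes were grouped by their tissue pattern in domesticus, whose arrays enter neither side of the comparison, in a description added after the data were seen. Of 2196 testis-enriched genes, with a testis level at least 4-fold above brain and liver on the scale of signal plus offset, 1072 (48.8%) lay below both parents and 51 (2.32%) above, with a median of -0.68 against the midparent. Of 302 genes at least 4-fold lower in testis than in brain and liver, 99 (32.8%) lay above and 0 below, with a median of 0.68. Of 4282 genes within 2-fold in the 3 tissues, 272 (6.35%) lay above and 36 (0.841%) below, with a median of 0.13. The remaining 7279 genes, with other patterns, had 890 (12.2%) above and 365 (5.01%) below and a median of 0.21. Under median scaling the medians of the 4 groups, in the same order, were -0.90, 0.49, -0.08 and -0.001, so the sign turned for the last 2, and the counts above and below were 21 and 1210, 45 and 0, 70 and 80, and 303 and 572.

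Genes of spermatogonia were on balance higher in the hybrid. Of 19 tested, 4 lay above both parents (21.1%, against 9.33% of all genes) and none below (10.5% of all genes). The median against the midparent was 0.54, or 0.45 relative to the median of all genes (0.09). Kit, the stem cell factor receptor of differentiating spermatogonia, had signals of 471 and 483 in musculus, 493 and 424 in castaneus and 1257 and 810 in the hybrid. Both hybrid arrays exceeded all parental ones, and the difference from the midparent was 1.06 ± 0.19 (SE; outside adjusted p = 0.00589). In this and the following paragraphs on lists, the adjusted p of a gene is likewise that of the outside test. It does not belong to the midparent difference beside it. Dmrt1, a transcription factor of spermatogonia and Sertoli cells, rose from 475 and 463 in musculus and 604 and 636 in castaneus to 1129 and 1287, by 1.12 ± 0.167 (adjusted p = 0.00531). Dazl, an RNA-binding protein of germ cells, rose by 0.84 and the X-linked homeobox gene Rhox13 by 1.02. Sall4 (0.84) and Stra8 (0.72), a meiosis-promoting target of retinoic acid, did not pass the test, with outside adjusted p of 0.0614 and 0.176. Ret (0.01), Neurog3 (-0.003), Sohlh1 (0.16) and Uchl1 (0.16) lay near the midparent and were not called. The other probe set of Kit stood at 0.44 and was not called. Zbtb16, a stem cell transcription factor, went against the list at -1.42, a value that rests on 1 hybrid array at 23 against 199 on the other, while its 2 other probe sets had a median of 0.77. The count was 2 under median scaling, 2 without replicate 1 of the hybrid and 1 without replicate 2.

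Genes of meiotic chromosome pairing and recombination had calls at shares near those of all genes: of 28, 4 lay above both parents (14.3%, against 9.33% of all genes) and 3 below (10.7%, against 10.5%), with a median of 0.20 (0.12 relative to all genes) that was -0.01 under median scaling. Sycp1, the transverse filament of the synaptonemal complex, had 3719 and 3339 in musculus, 2748 and 2693 in castaneus and 5137 and 5450 in the hybrid. The hybrid arrays were the highest of the 6, by 0.77 ± 0.125 over the midparent (outside adjusted p = 0.0149). Trip13, an ATPase that remodels chromosome axis proteins, rose by 0.83, Meioc, which keeps germ cells in meiotic prophase, by 0.75, and Terb2, a telomere attachment factor, by 0.66. The meiotic cohesin subunit Rec8 had 600 and 415 in musculus, 812 and 816 in castaneus and 277 and 244 in the hybrid, the lowest of the 6, and differed by -1.20 ± 0.222 (adjusted p = 0.0361). Syce2 and Syce3, central element proteins of the same complex, fell by 0.56 and 0.67. Sycp3, an axis protein, stood at 0.39 (outside adjusted p = 0.0943) and passed only the test against the midparent (limma, adjusted p = 0.0207). Spo11, which cuts DNA to start recombination, stood at 0.12. Prdm9, the histone methyltransferase that places recombination sites, had 223 and 357 in musculus, 107 and 115 in castaneus and 134 and 167 in the hybrid, between its parents. The counts above and below were 6 and 1 under quantile normalization, 1 and 3 under median scaling, and 0 and 0 without replicate 2 of the hybrid, 1 and 0 without replicate 2 of castaneus, 1 and 1 without replicate 2 of musculus, 2 and 1 without replicate 1 of the hybrid, 2 and 2 without replicate 1 of castaneus and 5 and 1 without replicate 1 of musculus.

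Among 24 genes of pachytene and diplotene spermatocytes, 1 lay above both parents (4.17%, against 9.33% of all genes) and 5 below (20.8%, against 10.5%). The median of the list was -0.39 (-0.48 relative to all genes). Ccna1, a cyclin needed to leave meiotic prophase, had 3107 and 2776 in musculus, 2379 and 2368 in castaneus and 1557 and 1213 in the hybrid. No hybrid array reached a parental one, and the difference was -0.93 ± 0.124 (adjusted p = 0.00265). The polo-like kinase Plk1 fell by 0.96, the germ cell glycolytic enzyme Pgk2 by 0.67, the sperm surface protein Adam3 by 0.61 and its chaperone Clgn by 0.53. Cul4a, a ubiquitin ligase scaffold, rose by 0.66, and no gene of the list was called above under median scaling or without musculus replicate 1, castaneus replicate 1 or 2, or hybrid replicate 1 or 2. Piwil1 (-0.02), which binds pachytene piRNAs, and Hspa2 (-0.20), a meiotic chaperone, were not called. The count below was 3 without replicate 2 of castaneus and 2 without replicate 2 of the hybrid, and 3 under quantile normalization. In the piRNA pathway, which silences transposons, 1 of 16 genes fell (Tdrd7, by 0.50) and none rose. This share of 6.25% is under the 10.5% of all genes below both parents. The list's median of 0.09 was -0.14 under median scaling. Tdrd7 lost its call without musculus replicate 1 or 2, castaneus replicate 2 or hybrid replicate 1 or 2.

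Genes of spermatids made up most of the listed genes below both parents. The 5 lists of acrosome, spermatid signalling, chromatin condensation, tail and axoneme hold 137 distinct genes. Of these, 87 (63.5%, against 10.5% of all genes) lay below both parents and 0 above, with a median of -0.78 against the midparent. The lists are described in turn.

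Of 26 genes of the acrosome, the secretory vesicle of the sperm head, and of sperm-egg fusion, 16 fell below both parents and none rose, with a median of -0.70 (-0.78 relative to all genes). Izumo1, the sperm protein that binds the egg's receptor, had 4471 and 4042 in musculus, 3402 and 3351 in castaneus and 1387 and 1389 in the hybrid. Both hybrid arrays lay far under the lowest parental array, by -1.43 ± 0.127 from the midparent (outside adjusted p = 0.000195). Spaca7, an acrosomal protein, had 3303 and 2500, then 2574 and 2399, then 1041 and 987 in the same order of groups, and fell by 1.37. The sperm hyaluronidase Spam1 fell by 1.36 and Hyal5, another hyaluronidase, by 1.12. Tmem190, an acrosomal membrane protein, fell by 1.51 and Eqtn, equatorin, by 1.11. The protease precursor Acr had 2898 and 2999 in the hybrid, 6080 and 6128 in musculus and 3440 and 3556 in castaneus. It lay under all 4 parental arrays but close to castaneus, and did not pass (adjusted p = 0.463). Spink2, an acrosin inhibitor, stood at -0.33 and was not called. Without replicate 2 of the hybrid 10 genes were called.

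Of 28 spermatid kinases, sperm calcium channel subunits and cAMP response genes, 22 fell and none rose, with a median of -1.0 (-1.09 relative to all genes). Tssk6, a testis-specific serine kinase of elongating spermatids, had 10029 and 9511 in musculus, 9864 and 11218 in castaneus and 4706 and 3565 in the hybrid. The parents overlapped each other and the hybrid lay under both, by -1.30 ± 0.133 (adjusted p = 0.000251). Its relatives Tssk3 and Tssk4 fell by 1.32 and 1.27, and Tssk1 and Tssk2 by 1.12 and 0.95. Tssk5 had 48 and 14 in the hybrid, with arrays that overlapped those of the parents, and was not called. The channel subunit Catsper3 had 2633 and 2716 in musculus, 2279 and 1847 in castaneus and 1001 and 802 in the hybrid, and fell by 1.36 ± 0.123 (adjusted p = 0.00024). Catsper1 fell by 1.31, and Adcy10, the soluble adenylyl cyclase that drives sperm motility, by 1.22. Crem, a transcription activator of spermatid genes, had 5692 and 4982, then 5153 and 4975, then 2776 and 2457, and fell by 0.98 ± 0.107 (adjusted p = 0.000333), while its 2 other probe sets had a median of 0.35. Its coactivator Fhl5 fell by 1.02 and the ciliary transcription factor Rfx2 by 0.88, while the 2 other probe sets of Rfx2 gave a median of 0.11. Prkaca, a catalytic subunit of protein kinase A made in many tissues, stood at 0.38 and was not called.

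Chromatin condensation genes split within the list. Of 12, 7 fell and none rose, with a median of -0.68 (-0.76 relative to all genes), but the transition proteins and main protamines, which replace histones in turn, did not pass the test. Prm1 had 21014 and 28915 in musculus, 16154 and 22042 in castaneus and 18117 and 16719 in the hybrid, so its arrays overlapped those of castaneus. Its difference from the midparent was -0.31 ± 0.172 (outside adjusted p = 0.982). Prm2, Tnp1 and Tnp2 stood at -0.40, -0.44 and -0.51 and were not called either. Prm3, a protamine-related acidic protein, had 9681 and 10335, then 9503 and 12746, then 4233 and 4917, and fell by 1.20 ± 0.161 (adjusted p = 0.00134). Both hybrid arrays lay under all 4 parental ones. The spermatid histone H2al2a fell by 1.03, the linker histones Hils1 and H1f7 by 0.78 and 0.72, and Cypt12 by 1.07. The count was 2 without replicate 1 of the hybrid, 3 without its replicate 2, 3 without castaneus replicate 2 and 4 without musculus replicate 1.

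Of 43 tail genes 29 fell and none rose, with a median of -0.85 (-0.94 relative to all genes). Sun5, which anchors the tail to the head, had 2921 and 2285 in musculus, 2805 and 3066 in castaneus and 1037 and 842 in the hybrid, and fell by 1.53 ± 0.144 (adjusted p = 0.00019). Both hybrid arrays were under all parental arrays. Ccin, calicin of the perinuclear cytoskeleton, fell by 1.52, the actin bundler Fscn3 by 1.52 and Spem1, which helps shed spermatid cytoplasm, by 1.45. The fibrous sheath scaffold Akap4 fell by 0.85 and the sperm glycolytic enzyme Gapdhs by 0.92. All 5 tektins, filament proteins of the tail, fell, from 0.71 (Tekt1) to 1.12 (Tekt4). Odf1, the main outer dense fibre protein, stood at -0.71 with an adjusted p of 0.0517, and Hook1, a microtubule linker, at 0.12. Of 30 axoneme genes 14 fell and none rose, with a median of -0.65 (-0.73 relative to all genes). Dnali1, a dynein light chain, fell by 1.19, Ttc29 by 1.18, the dynein regulator Drc1 by 1.11 and the radial spoke protein Rsph9 by 1.05. Rsph1 (-0.38) and Dnah8 (-0.38) were not called. Without replicate 2 of the hybrid 17 tail and 7 axoneme genes were called.

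**Figure D2:**
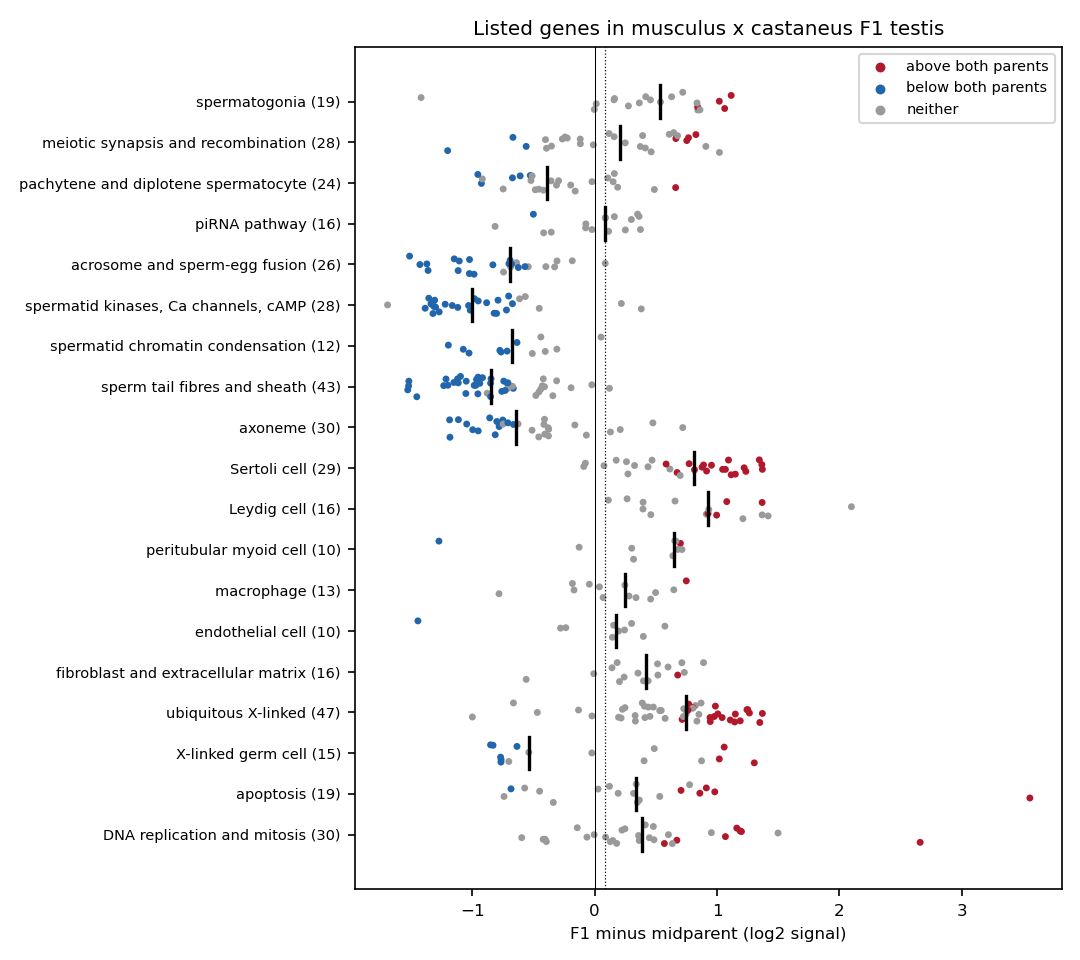
Log2 difference of the hybrid from the midparent for each tested gene of 19 lists, with the number of genes in parentheses; a black bar is the list's median, the dotted line the median of all 14059 genes. Spermatid lists lie left of 0 with medians of -0.65 to -1.0, and Sertoli cell, Leydig cell and ubiquitous X-linked genes lie right of it with medians of 0.82, 0.93 and 0.75.

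Sertoli cell genes rose relative to the rest of the array. Of 29 tested, 18 lay above both parents (62.1%, against 9.33% of all genes) and none below, with a median of 0.82 (0.73 relative to all genes). Cldn11, the tight junction protein of the barrier between Sertoli cells, had 1622 and 1651 in musculus, 1675 and 1495 in castaneus and 4186 and 4240 in the hybrid. The parents overlapped and both hybrid arrays were far over them, by 1.37 ± 0.168 from the midparent (outside adjusted p = 0.000592). Rhox5, an androgen-responsive X-linked homeobox gene, had 971 and 1113, then 995 and 1099, then 2191 and 3419, and rose by 1.37 ± 0.183 (adjusted p = 0.000939). Both hybrid arrays were over all 4 parental ones. Wt1, a transcription factor that maintains Sertoli cells, had 774 and 817, then 762 and 764, then 1549 and 1738, and rose by 1.05 ± 0.156 (adjusted p = 0.00208). Fabp5, a fatty acid binding protein, rose by 1.35, the intermediate filament Vim by 1.24, Tsx by 1.22, the inhibin subunit Inha by 1.15 and the gap junction protein Gja1 by 1.09. Not every marker rose. Sox9 had 364 and 415 in musculus, 312 and 295 in castaneus and 336 and 307 in the hybrid, although its other probe set stood at 1.14. The follicle stimulating hormone receptor Fshr stood at 0.18, the actin bundler Espn at 0.08 and the keratin Krt18, of immature cells, at -0.08. Amh, a marker of immature Sertoli cells, and Gdnf were under the filter on dim values, with signals of 46 and 52 and of 18 and 16 in the hybrid. The count was 11 under median scaling and 9 without replicate 2 of the hybrid.

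Leydig cell genes were high in the hybrid, and several were already high in castaneus. Of 16, 4 lay above both parents (25%, against 9.33% of all genes) and none below, with a median of 0.93 (0.84 relative to all genes). Castaneus exceeded musculus by a median of 0.63 and in 5 genes by its own test. That test called 7.48% of all probe sets higher in castaneus and 6% lower. The mean of the list against the mean of the parental arrays was 0.81 and 1.01 on the hybrid arrays, 0.68 and 0.12 on the castaneus arrays and -0.55 and -0.25 on the musculus arrays. The hybrid arrays were the highest, with 1 castaneus array close to them. Sult1e1, an oestrogen sulfotransferase, had 289 and 560 in musculus, 377 and 336 in castaneus and 908 and 1164 in the hybrid, and rose by 1.37 ± 0.232 (adjusted p = 0.00542). Hsd3b1, a steroid dehydrogenase, rose by 0.93, cytochrome b5 (Cyb5a), which aids androgen synthesis, by 1.00 and the epoxide hydrolase Ephx1 by 1.08. Cyp17a1, which converts progestins to androgens, had 1953 and 2443 in musculus, 7270 and 5261 in castaneus and 8335 and 8802 in the hybrid. It exceeded castaneus on both arrays and did not pass the test (adjusted p = 0.107). Cyp11a1, which starts steroid synthesis from cholesterol, stood at 1.42 (adjusted p = 0.0677), with castaneus arrays at 2561 and 919. Klk1b24, a kallikrein, had 64 and 92 in musculus, 3710 and 1205 in castaneus and 1807 and 2289 in the hybrid, between the parental means. The count was 1 under median scaling, 6 under quantile normalization, 2 without musculus replicate 1, 2 without castaneus replicate 2 and 0 without replicate 2 of the hybrid.

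Other somatic lists had calls near or under the shares of all genes, 9.33% above and 10.5% below. Of 10 myoid cell genes, 1 rose and 1 fell (10% each): Acta2, smooth muscle actin, by 0.70 and Actg2, enteric smooth muscle actin, by 1.27. Actg2 had 4981 and 5178 in musculus, 3757 and 3556 in castaneus and 2048 and 1520 in the hybrid, the lowest of the 6. The median of the list was 0.65 (0.56 relative to all genes), with Mylk, Myl9, Tpm1 and Cald1 between 0.64 and 0.71 and not called. Of 13 macrophage genes Csf1r, the receptor that maintains macrophages, rose, from 641 and 624 in musculus and 621 and 639 in castaneus to 1054 and 1110, and none fell. The macrophage median was 0.25 (0.16 relative to all genes), Cd68 stood at -0.04 and Adgre1 at 0.04. Of 10 endothelial genes none rose and Vwf, von Willebrand factor, fell, from 1670 and 1327 in musculus and 1404 and 1462 in castaneus to 575 and 464, by -1.45 ± 0.156 (adjusted p = 0.000287). The other 9 endothelial genes were not called, and the list's median of 0.17 was -0.02 under median scaling. Of 16 fibroblast and matrix genes Sparc rose by 0.68, with a median of 0.42 (0.33 relative to all genes). The 2 red blood cell genes tested were not called. Acta2 lost its call under median scaling and without musculus replicate 2 or hybrid replicate 2, Sparc under median scaling and without castaneus replicate 1 or hybrid replicate 2, and Csf1r under median scaling.

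**Figure D3:**
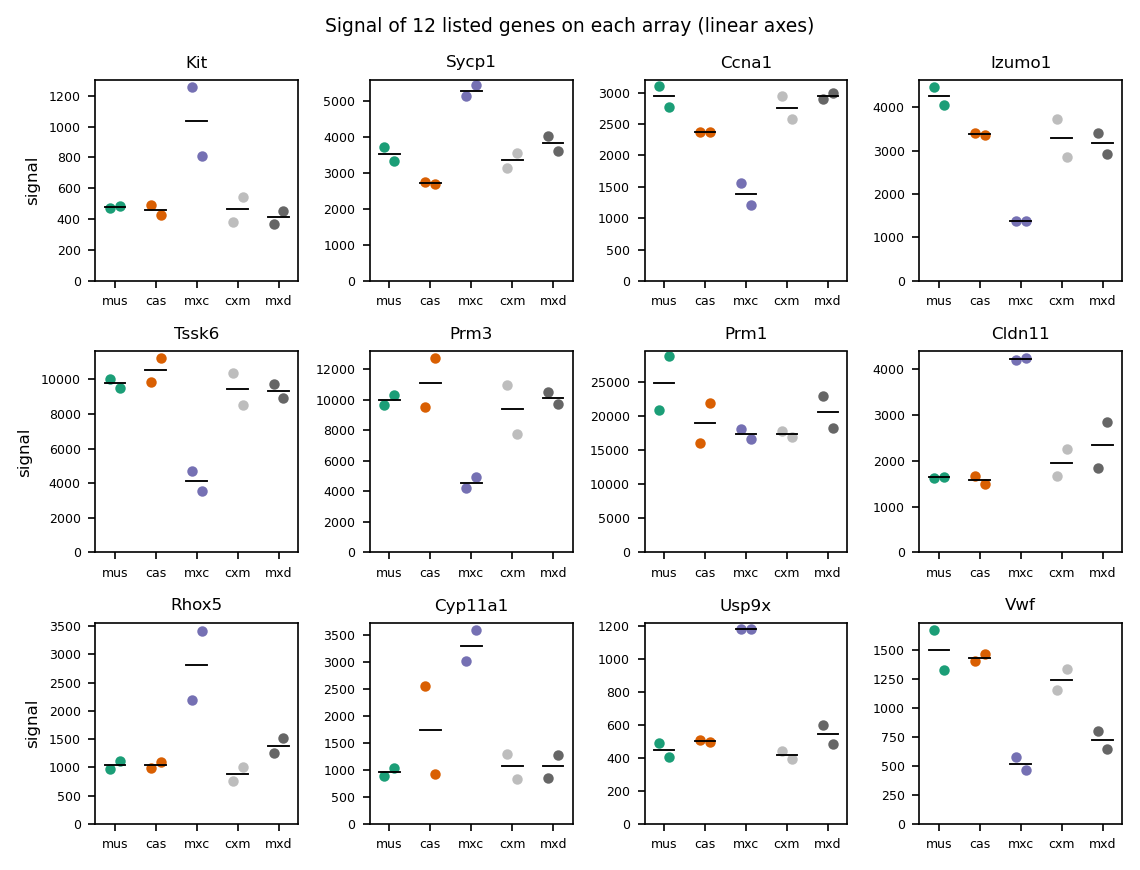
Signal on each array for 12 listed genes, on linear axes from 0: musculus (mus), castaneus (cas), musculus x castaneus F1 (mxc), castaneus x musculus F1 (cxm) and musculus x domesticus F1 (mxd), with bars at the mean of 2 arrays. Kit, Sycp1, Cldn11, Rhox5 and Usp9x are highest, and Ccna1, Izumo1, Tssk6, Prm3 and Vwf lowest, in the musculus x castaneus F1, while Prm1 overlaps castaneus.

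X-linked genes are silenced in spermatocytes during meiosis and many stay low in spermatids. A list of X-linked genes used in most tissues was written by hand without a chromosome annotation. Of its 47 tested genes, 19 lay above both parents (40.4%, against 9.33% of all genes) and none below. The median of the list was 0.75 (0.66 relative to all genes). Usp9x, a deubiquitinase, had 492 and 405 in musculus, 507 and 496 in castaneus and 1181 and 1181 in the hybrid. Both hybrid arrays were over all parental ones, and the gene rose by 1.27 ± 0.154 over the midparent (outside adjusted p = 0.000748). Atp6ap1, a proton pump accessory protein, rose by 1.37, Acsl4, a fatty acyl-CoA ligase, by 1.35, the copper transporter Atp7a by 1.25 and the RNA helicase Ddx3x by 1.15. Hprt, of purine salvage, rose by 0.80. Pgk1, a glycolytic enzyme, had 823 and 818 in musculus, 1803 and 1803 in castaneus and 1476 and 1790 in the hybrid, and was not outside its parents. Wdr13 (-1.0), Stag2 (-0.66) and Rlim (-0.47) were the lowest and not called, and their other probe sets had medians of 0.18, 0.77 and 1.11. Without replicate 2 of the hybrid 12 were called. Under median scaling 15 lay above and 3 below.

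X-linked genes of germ cells split: of 15, 3 rose (20%, against 9.33% of all genes) and 6 fell (40%, against 10.5%). The median of the list was -0.54 (-0.63 relative to all genes). Those that rose were Tktl1, a transketolase-like gene, from 325 and 382 in musculus and 449 and 345 in castaneus to 852 and 1096, Tex13b (by 1.06) and Rhox13. Those that fell were Akap4, Cypt1, Cypt3, Zcchc13, Tcp11x2 and Fthl17a, from 0.64 to 0.85. Akap4 and both Cypt genes also stand in the spermatid lists. Tex11, which acts in meiotic recombination, stood at 0.87 (adjusted p = 0.0632). The count that fell was 3 without musculus replicate 1, 4 without replicate 1 of the hybrid, 2 without its replicate 2 and 2 without castaneus replicate 2, and the count that rose was 2 without musculus replicate 1, castaneus replicate 2 or hybrid replicate 2. Of 5 Y-linked genes none was called, with a median of 0.13 that was -0.09 under median scaling; Eif2s3y had 1432 and 1260 in musculus, 1398 and 1172 in castaneus and 1447 and 1433 in the hybrid.

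Among 19 apoptosis genes 5 rose (26.3%, against 9.33% of all genes above both parents) and 1 fell (5.26%, against 10.5% below). The median of the list was 0.34 (0.25 relative to all genes). Pmaip1, the p53 target Noxa, is described with the leading genes. Cdkn1a, the p53-induced inhibitor of the cell cycle p21, had 250 and 283 in musculus, 326 and 386 in castaneus and 516 and 787 in the hybrid, and rose by 0.98 ± 0.197 (adjusted p = 0.0308). The proapoptotic Bcl2l11 rose by 0.91 and Bid by 0.86, and the antiapoptotic Bcl2l2 by 0.71. Mcl1, which protects cells, fell by 0.68, while its 5 other probe sets had a median of 0.67. Bbc3, another p53 target, stood at -0.74 with overlapping arrays, and Fas was under the filter. Of 30 genes of DNA replication and mitosis 7 rose (23.3%, against 9.33% of all genes) and none fell, with a median of 0.39 (0.30 relative to all genes). The replication helicase subunits Mcm5, Mcm2, Mcm3 and Mcm6 rose by 1.20, 1.19, 1.16 and 0.57, the cyclin Ccnd2 by 1.07, and Neil3 and Cenpa also rose. Mcm7 (0.18), Pcna (0.25), the sliding clamp, and Top2a (0.15) were not called. The apoptosis count above was 2 under median scaling, 3 under quantile normalization, 2 without castaneus replicate 2 and 1 without hybrid replicate 2, and the replication count was 4 under median scaling and 4 without hybrid replicate 1.

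**Figure D4:**
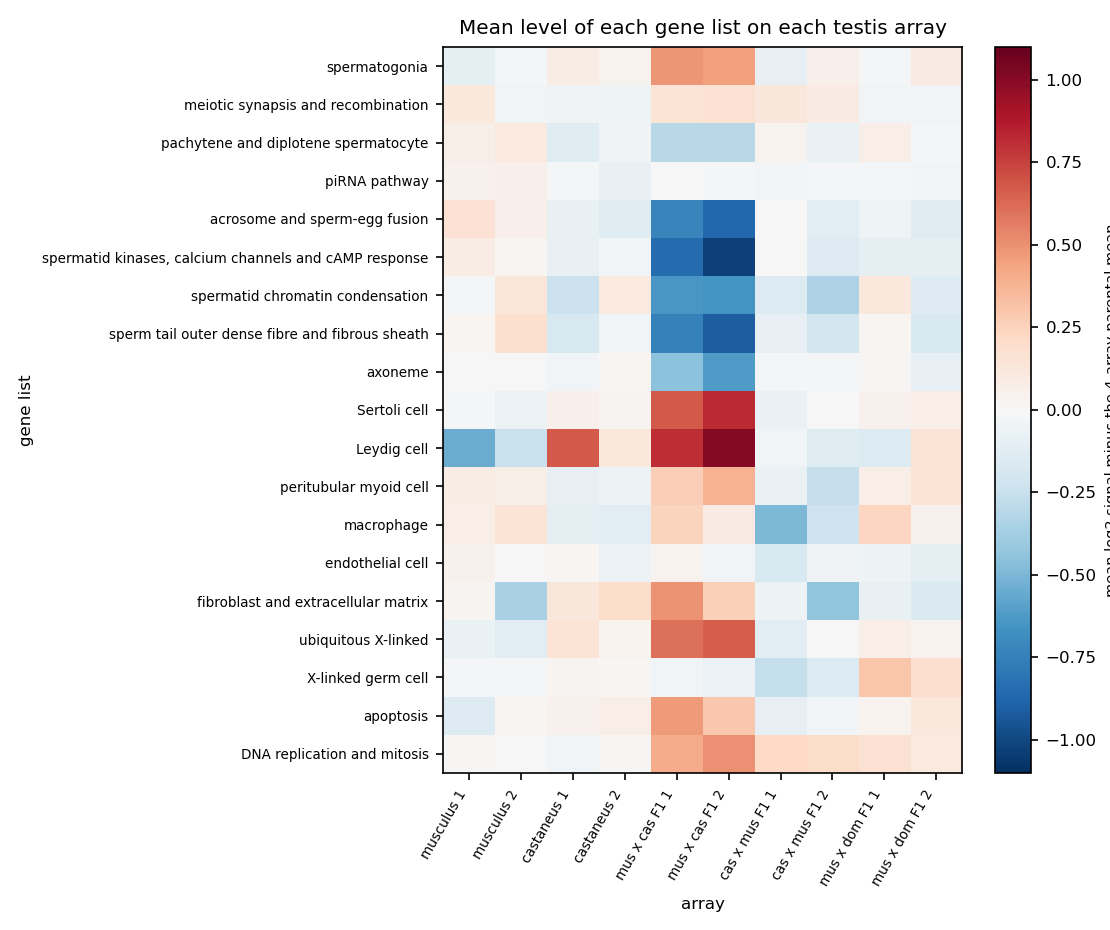
Mean log2 signal of each list's genes on 10 testis arrays, as the difference from the mean of the 4 parental arrays. Among the 10 arrays, the 2 of the musculus x castaneus F1 (mus x cas F1) are the lowest in spermatid lists, at -0.85 and -1.03 for spermatid kinases and channels. They are the highest of the 10 in Sertoli cell genes, at 0.67 and 0.82, and in Leydig cell genes, at 0.81 and 1.01.

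The genes farthest above both parents were taken by a rule: 1 gene symbol, all arrays apart and the largest distance to the nearer parent, from 1592 genes above and 1582 below that met it. Distances are log2 differences of signal plus the offset of 31, so for signals near the offset they are smaller than the ratio of the signals. Pmaip1 led those above. It had 102 and 55 in musculus, 19 and 6 in castaneus and 737 and 800 in the hybrid, 2.90 ± 0.329 over the nearer parent, musculus (adjusted p = 0.00018). Both castaneus arrays lay under the offset, so no distance from castaneus is given. Neil3, a DNA glycosylase of dividing cells, had 106 and 129, then 107 and 121, then 979 and 818, 2.645 ± 0.165 over the nearer parent (adjusted p = 1.19e-05). The parents overlapped and the hybrid was far over both. Lgals3, galectin-3, had 107 and 63, then 113 and 110, then 509 and 547, 1.97 over the nearer parent. Mpeg1, perforin-2, a macrophage protein, had 86 and 112, then 30 and 14, then 350 and 640. The hybrid arrays were the highest of the 6 for both genes. Retsat, retinol saturase, was 1.75 over the nearer parent and Nxf3, an X-linked relative of RNA export factors, 1.54, from 1535 and 1504 in musculus and 1273 and 790 in castaneus to 4286 and 4689. Cstdc2, a cystatin-like gene, had 31 and 28 in musculus, 45 and 64 in castaneus and 215 and 237 in the hybrid. Ptov1 (2.09), Cdca7 (1.77), Bod1l (1.77), Tra2a (1.63) and Ube2w (1.52) complete the 12. The other probe sets of Ptov1 and Ube2w had medians of -0.02 and -0.24 against the midparent, so only 1 probe set of each was high. Cdca7, Tra2a, Bod1l, Ptov1 and Cstdc2 lost their call in 8, 6, 4, 3 and 1 of 14 alternative settings. Each of the 5 lost it when single arrays were left out, and Cdca7 also under both scalings and, like Tra2a, without a filter.

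Rnf24, a ring finger protein, led the genes below both parents. It had 593 and 452 in musculus, 706 and 639 in castaneus and 56 and 62 in the hybrid, -2.61 ± 0.261 from the nearer parent (adjusted p = 0.000136), although its other probe set stood at 0.27. Lrrc10b had 406 and 281, then 322 and 445, then 48 and 35, -2.35 ± 0.251 from the nearer parent (adjusted p = 0.000147). Its hybrid signals lie little above the offset, so this distance depends on the offset. The hybrid lay under all parental arrays for Rnf24 and Lrrc10b. Prss52, a testis serine protease gene, had 2928 and 3152, then 3530 and 2948, then 820 and 693, -1.97 from the nearer parent. The tetraspanin Cd37 had 35 and 31 in the hybrid, the synaptic scaffold Homer1 17 and 6, the cytochrome P450 Cyp2a12 22 and 21, and Fam83e 22 and 40. These signals lie at or about the offset, which sets how low such a gene can be read, so no distance is given for these genes. Their parental arrays lay between 145 and 469. The cell adhesion molecule Ceacam1 had 41 and 66 in the hybrid, Togaram2, a microtubule-binding protein, 40 and 67, 4930533B01Rik 45 and 35, Gsap 46 and 51 and the potassium channel partner Kcnip2 51 and 168. By the rule of choice, all 12 genes were lower on both hybrid arrays than on every parental one. The other probe sets of Homer1 had a median of 0.40 and the other one of Cd37 stood at -0.19. Kcnip2 lost its call in 2 of 14 alternative settings, without musculus replicate 2 and without hybrid replicate 1.

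Different probe sets of a gene often did not share the call. Among 5696 genes with 2 or more tested probe sets, 1139 had one above both parents, of which 806 had every probe set over the midparent and 100 had every probe set above both parents. Of 745 with a probe set below both, 350 had every probe set under the midparent and 81 had every one below both parents.

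**Figure D5:**
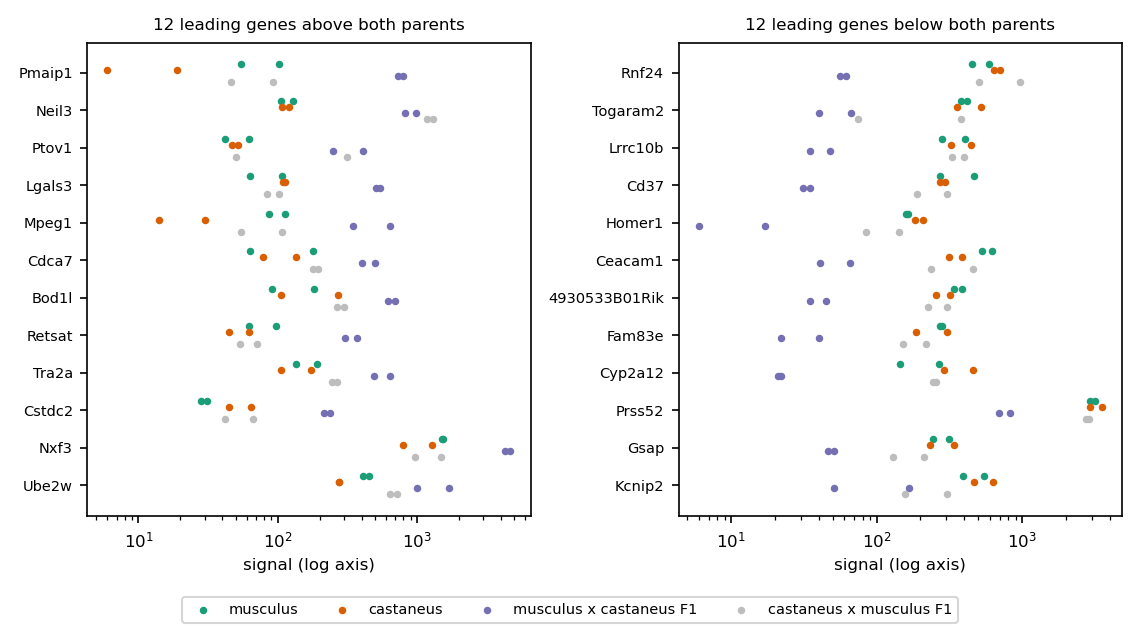
Signal on each array, on a log axis, for the 12 leading genes above both parents (left) and below both (right). By the rule of choice, the 2 arrays of the musculus x castaneus F1 lie apart from the 4 parental arrays in every gene. Those of the castaneus x musculus F1 lie beside the parents in most and with the musculus x castaneus F1 in Neil3.

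The direct comparison with the reciprocal castaneus x musculus F1, of nearly the same age, found 7687 probe sets (28.4%) that differed. Of all probe sets tested, 17.9% (4836) were higher and 10.6% (2851) lower in the musculus x castaneus F1. Higher calls were 62.9% of those that differed, 44.8% under quantile normalization and 23.2% under median scaling. Against the reciprocal F1, Sertoli cell genes were higher by a median of 0.77, with 22 of 29 called higher, and Leydig cell genes by 0.86, with 8 of 16. Acrosome genes had a median of -0.65 (18 of 26 called lower) and spermatid kinases and channels -0.95 (25 of 28). Tail genes had -0.73 (26 of 43) and axoneme genes -0.59 (19 of 30). Chromatin condensation genes differed less, at -0.32 (5 of 12), and at -0.14 under quantile normalization. The reciprocal arrays themselves lay at -0.15 and -0.34 from the parental mean in that list. None of these lists had a gene called higher. Fibroblast and matrix genes had 0.67, with 10 higher and 1 lower of 16. The median of all genes was 0.16 in this comparison. Ubiquitous X-linked genes were higher by 0.71, with 28 of 47 called and none lower. X-linked germ cell genes had a median of 0.04, with 5 higher and 1 lower. Neil3 did not differ by the test (-0.46, adjusted p = 0.0505), with 1184 and 1311 in the reciprocal F1. Replicate 1 of the reciprocal F1 had the lowest median signal of the 14 testis arrays, at 95. The median difference over all probe sets was 0.24, and 0.10 without that array. Without replicate 1 of the reciprocal F1, 3447 probe sets differed, and without replicate 2 of the musculus x castaneus F1, 3664.

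Against the musculus x domesticus F1, of the same age and the same mother's subspecies, 7827 probe sets (29%) differed. Of all probe sets tested, 16.6% (4482) were higher and 12.4% (3345) lower. Higher calls were 57.3% of those that differed, 49.6% under quantile normalization and 38.3% under median scaling. Sertoli cell genes were higher by a median of 0.73 (17 of 29 called) and none was lower. Acrosome genes were lower by -0.77 (19 of 26 called), tail genes by -0.83 (31 of 43) and axoneme genes by -0.52 (17 of 30), and none of the 3 lists had a higher call. Leydig cell genes were higher by 0.89 (9 higher and 1 lower of 16) and ubiquitous X-linked genes by 0.72 (30 higher and 4 lower of 47). X-linked germ cell genes had a median of -0.74, with 3 higher and 8 lower of 15. The median of all genes was 0.06. Without replicate 2 of the musculus x castaneus F1, 4257 probe sets differed, and without replicate 1 of the musculus x domesticus F1, 4925. Both comparisons share the musculus x castaneus arrays, and age differs by at most 1 day in them.

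By the rule used here, the castaneus x musculus F1 had 1 probe set outside both of its parents, the musculus x domesticus F1 had 0 and the domesticus x musculus F1 had 0 (limma), against 374, 177 and 183 at an unadjusted p under 0.05 and 7017 in the musculus x castaneus F1. The castaneus x musculus F1 shares its parental arrays with this hybrid. In brain and liver of the same 2 males, 0 and 0 of 27022 probe sets lay outside both parents by limma, with 325 and 213 at an unadjusted p under 0.05. The filter was applied within each tissue, so these probe sets are not the same set as in testis. Whether the difference between testis and the other tissues passes a test was not tested here.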

How the data were processed

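For each array the authors deposited linear signal intensities, and the submitters' processing notes name MAS5 as their source. The MAS5 version is not given in the sources used here. Trimmed means of 496.9 to 498.6 on the 42 arrays show scaling to a shared target. Where a subspecies differs in sequence from the probes, its signal may be too low. The platform annotation gave 1 symbol for 34945 of 45037 probe sets, several for 932 and none for 9160.

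Values were taken as log2(signal + 31), 31 being the 20th percentile of all deposited values, which understates changes of dim transcripts. After removal of probe sets whose mean over 14 testis arrays fell under the 40th percentile (signal 84.3), 27022 were fitted with limma 3.58.1 (R 4.3.3; lmFit, eBayes with trend), by genotype, leaving 7 residual degrees of freedom. Adjusted p-values are two-sided, from limma with Benjamini-Hochberg adjustment over all probe sets. An outside adjusted p is the larger of both parental p-values, adjusted. Adjusted p-values beside list genes and leading genes are outside ones, except where another test is named and in comparisons with other hybrids. For lists, a gene is its probe set with 1 symbol and the highest mean. The 22 lists cover 426 tested genes, 65 above both parents and 101 below, 15 of them in more than 1 list. Named genes have 1 symbol, no _x_at suffix, adjusted p under 0.05 and arrays apart, each by its probe set with the smallest p. The 12 farthest from the nearer parent in each direction are named, plus list members. The comparisons, members and lists were chosen with earlier results of these data known. Promoter sequences were not used here. Alternatives changed the offset, filter, scaling, arrays, replicate block and midparent.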

Additional observations from a re-analysis of the deposited data

Results flagged for a closer look

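In 17 of the 24 leading genes the value of the musculus x castaneus F1 differed from that of the reciprocal castaneus x musculus F1 by a test of the difference itself (limma, adjusted p under 0.05), on the log2 scale and with 2 males in each hybrid. The 24 genes were chosen for their values on the same 2 hybrid arrays, so the count lends no independent support, and 28.4% of all probe sets differed in this comparison. Higher in the musculus x castaneus F1 were Pmaip1 by 3.04, Mpeg1 by 2.21, Lgals3 by 2.17, Retsat by 1.98, Nxf3 by 1.88, Cstdc2 by 1.6 and Ube2w by 0.90. Lower were Rnf24 (-3.02), Lrrc10b (-2.45), Cyp2a12 (-2.42), Ceacam1 (-2.12), Cd37 (-2.09), 4930533B01Rik (-2.06), Prss52 (-1.86), Fam83e (-1.79), Homer1 (-1.74) and Gsap (-1.30). For Homer1, Cyp2a12, Cd37 and Fam83e, whose hybrid signals lie at or about the offset of 31, the size of the difference depends on that offset. The same holds for Lrrc10b and 4930533B01Rik, with hybrid signals of 48 and 35 and of 45 and 35. Against the musculus x domesticus F1, Mpeg1 (0.42, adjusted p = 0.348; 391 and 309 there) and Gsap (-0.69, adjusted p = 0.0988; 98 and 97 there) did not pass the same test. The 2 hybrids were 53 and 54 days old and differ in the direction of the cross.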

How the results depend on the processing

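The number of probe sets outside both parents stayed within 1.5 times of 4149 under other offsets (4061 and 4289), no filter or a stricter one (3480 and 4349), quantile and median scaling, the 3 compared groups alone (3789) and only probe sets without a parental call (3833). Counting all probe sets with both hybrid arrays beyond all 4 parental arrays, with no test and chosen after seeing the data, gave 12157. Leaving out 1 array gave 1677 to 3136 outside both parents, 6540 to 9595 against musculus, 4175 to 7195 against castaneus, 5431 to 8662 against the midparent, 3447 to 7625 against the reciprocal F1, 4257 to 5895 against the musculus x domesticus F1 and 88 to 145 of 166 listed genes. Deviations of the replicates correlated at 0.095 between musculus and castaneus, -0.084 between musculus and the hybrid and 0.272 between castaneus and the hybrid. These values do not settle whether replicate numbers pair the samples. With the replicate block 4202 lay outside both parents. Of 188 genes followed over 14 settings none reversed, 95 kept their call in all, and 18 of the 24 leading genes did. The median over all probe sets of a gene, in place of the brightest, gave list medians of 0.70 for Sertoli cell and -0.82 for spermatid kinases and channels. In brain and liver the count stayed 0 without a filter and under quantile normalization. With 2 arrays a group, small differences are measured with little precision. The log2 difference between replicates had an SD of 0.363 to 0.389 over all tested probe sets. That spread is no limit for the calls, which use the SE of each probe set.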
